A study of Rattus norvegicus with 6 samples.

Results

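Genes that carry, store and release iron, 10 in all, were followed through glomerular isolates of male Sprague-Dawley rats. The genes were chosen by name, for their place in iron handling, and with earlier results of these arrays known. All 10 genes were found, among 14506 genes whose probesets are annotated with exactly 1 symbol, and each was represented by its probeset with the highest mean over the 6 arrays, the measured value that entered the choice and one that ignores the isolates. The PEC-enriched isolates (n = 3 arrays) were the glomeruli held back by the 90 µm sieve, richer in capsulated ones, which keep Bowman's capsule and its parietal epithelial cells (PECs), but mixed with decapsulated glomeruli and tubules. The PEC-deprived isolates (n = 3 arrays) were collected on the 75 µm sieve and consisted mostly of decapsulated glomeruli, with tubules in part of the preparations. By the study's counts, a PEC-deprived preparation held a larger share of tubules than any PEC-enriched one, and the other PEC-deprived preparations few or none. Which array that preparation gave is not stated. No animal was treated. Each preparation came from an individual rat, and the methods name 3 animals beside the 6 arrays without saying whether each gave both fractions or which arrays would then belong together. The arrays were therefore treated as unpaired, and the spread given here is that between preparations. The isolates are mixtures of glomerular cells with some tubule, and in such bulk RNA fewer cells of a type and less RNA per cell cannot be told apart.

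Cells take up iron bound to transferrin through the transferrin receptor, and a proton-driven carrier moves it out of the endosome. Iron that is not used is kept inside ferritin, a shell of heavy and light chains, and leaves the cell through ferroportin with the help of a copper ferroxidase that loads it onto transferrin. A pair of iron regulatory proteins bind hairpins in the messenger RNAs of this system, which protects the receptor's message and blocks translation of ferritin when iron is scarce. In the kidney, filtered transferrin is recovered by the proximal tubule, and ceruloplasmin is known as a product of the parietal epithelium of Bowman's capsule in rats.

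Promoters of 7 of the 10 genes were matched in RefSeq (build GRCr8), in 8 windows because Slc11a2 has a pair of starts. The 250 bases before the start are shown for Tfrc and Cp, the genes with the largest differences between the isolates. Capitals mark the letters ACGTG, the core bound by hypoxia-inducible factors, and both strands were searched. The Tfrc window lies at chr11:81690319-81690568 on the minus strand and the Cp window at chr2:104368420-104368669 on the plus strand.
Tfrc: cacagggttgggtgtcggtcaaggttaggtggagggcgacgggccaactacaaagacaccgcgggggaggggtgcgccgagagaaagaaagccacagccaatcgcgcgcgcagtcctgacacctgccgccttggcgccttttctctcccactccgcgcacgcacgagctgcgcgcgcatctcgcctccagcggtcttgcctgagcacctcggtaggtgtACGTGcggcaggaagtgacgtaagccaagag
Cp: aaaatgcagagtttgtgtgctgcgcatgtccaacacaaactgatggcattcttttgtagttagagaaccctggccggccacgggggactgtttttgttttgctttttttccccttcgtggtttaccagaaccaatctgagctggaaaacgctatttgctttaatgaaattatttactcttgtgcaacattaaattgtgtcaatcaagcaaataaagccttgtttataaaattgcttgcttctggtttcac

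The core stood in the Tfrc window, 31 bases before the start, and in no other of the 8 windows. It occurs in 16.6% of all 33469 promoter windows of this length. The letters TGACNNNGC, an element bound by NRF2 in antioxidant genes, were searched likewise on both strands and matched 0 of the 8 windows, against 10.1% of all windows. These are letter matches, not binding sites. The ferritin genes and Hmox1 were not matched.

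The deposited values are log2 expression values from the RMA algorithm, and a log2 fold change is the mean of PEC-enriched minus that of PEC-deprived isolates, so that 1 stands for a doubling. Among the iron genes the receptor Tfrc and the ferroxidase Cp had all PEC-enriched arrays above all PEC-deprived ones, by 1.70-fold and 2.03-fold on average. So had the exporter Slc40a1 and the ferritin chain Ftl1, but over gaps of only 0.02 and 0.03. The ferritin chain Fth1 and the regulator Aco1 had somewhat higher means (0.22 and 0.27) with overlap. The second ferroxidase Heph and the regulator Ireb2 had values of -0.06 and -0.01. The mean was higher for 7 of the 10 genes and lower for 3, where 44.8% of all genes were higher, and the median was 0.24 over the 10 genes and -0.02 over all genes. In a limma fit of all 29215 probesets the methods' cutoff, 0.01 after adjustment, was passed by 0 of the 10 genes and by 0.0% of all probesets. Before adjustment, p was under 0.05 for 3 higher genes (Cp, Tfrc and Slc40a1) and 0 lower ones, where 7.96% of all genes were higher at that limit, 5.65% were lower, and 10.4% of all probesets passed it in either direction. A regularised Bayesian test, which borrows the variance of probesets of like level, called Cp alone of the 10 (adjusted p = 0.00558). The study's own Bayesian test, for which limma stands in here, reported many genes at an adjusted p under 0.01. It listed both Cp and Tfrc as higher. The limma counts are thus not what the study found at that cutoff. The arrays of the isolates did not overlap for 4 higher genes and 1 lower gene, against 9.68% and 9.0% of all genes.

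**Figure D1:**
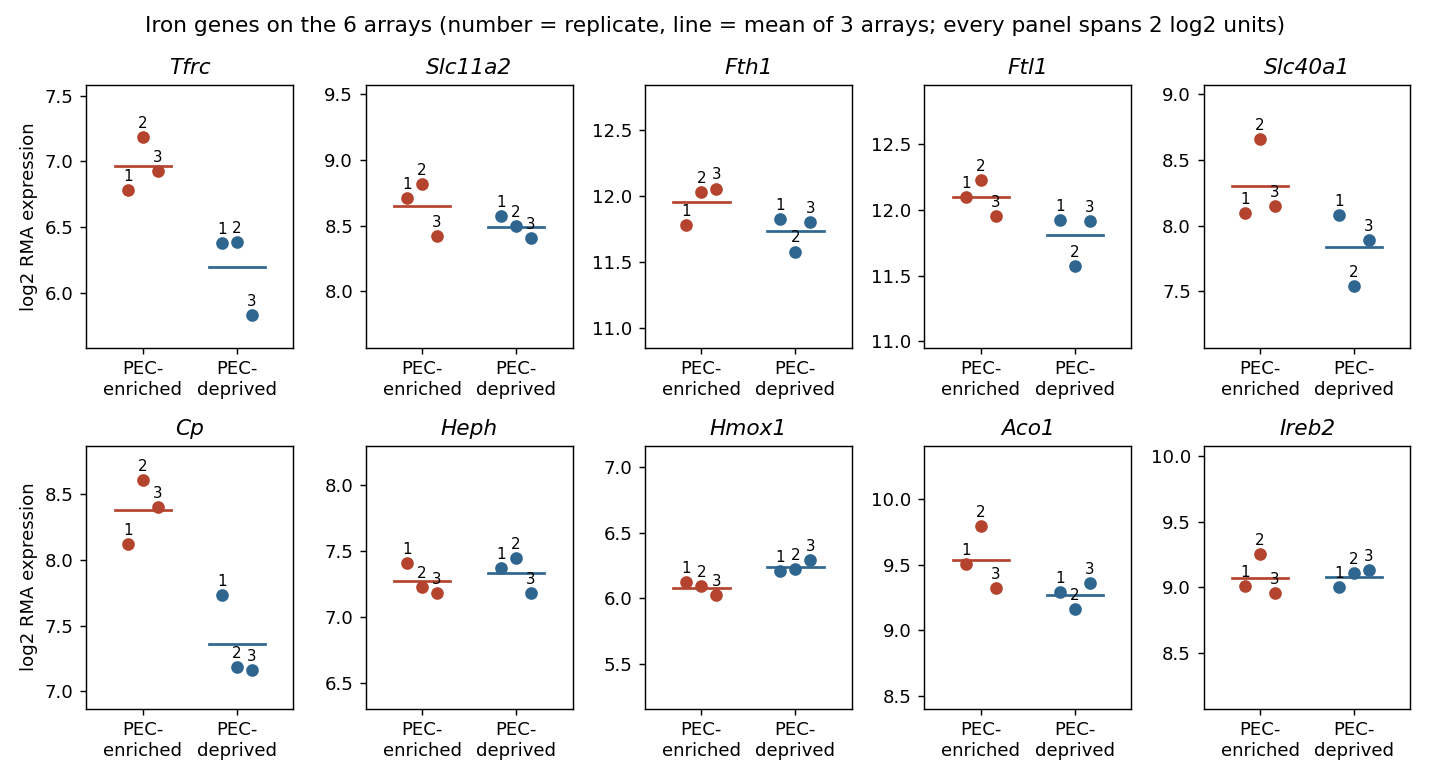
RMA log2 expression (y axis) of the 10 iron genes in PEC-enriched and PEC-deprived isolates (x axis), each point 1 array with its replicate number and each line the mean of 3 arrays, with the same span in every panel. Tfrc and Cp show a clear gap between the isolates (0.39 on the log2 scale in each), while Heph and Ireb2 overlap.

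Uptake was read from Tfrc and Slc11a2. Tfrc, the transferrin receptor, had log2 values of 6.78, 7.19 and 6.93 in PEC-enriched isolates (replicates 1 to 3), against 6.38, 6.39 and 5.83 in PEC-deprived isolates. All PEC-enriched arrays were above all PEC-deprived arrays, and PEC-deprived replicate 3 was the lowest of the 6. PEC-enriched isolates averaged 6.97 ± 0.20, against 6.20 ± 0.32 for PEC-deprived ones (SD, n = 3 each). That is a log2 fold change of 0.77, in linear terms 1.70-fold (standard error, SE, 0.17, 95% interval 0.37 to 1.17, limma adjusted p = 0.2). Of all genes, 1.85% had a higher log2 fold change. Without single arrays the value lay between 0.58, when PEC-deprived replicate 3 was left out, and 0.86.

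Slc11a2, the divalent metal transporter that empties the endosome and also brings in non-transferrin iron, overlapped between the isolates. Its log2 values were 8.71, 8.81 and 8.42 in PEC-enriched isolates, against 8.57, 8.50 and 8.40 in PEC-deprived isolates. PEC-enriched replicate 3 lay below PEC-deprived replicates 1 and 2. Between the means lay 0.16 (SE 0.12, 95% interval -0.12 to 0.43, limma adjusted p = 0.764). It was 0.07 without PEC-enriched replicate 2 and 0.27 without PEC-enriched replicate 3, where the unadjusted p was 0.0369 and the adjusted p 0.465. The log2 fold change of Tfrc was larger by 0.61, and the difference between the values of both genes on each array did not overlap between the isolates (two-sided exact permutation p = 0.1, which is as low as 3 arrays against 3 can go, and 0.133 adjusted over 4 such pairs).

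Storage was read from the ferritin chains. Fth1, the heavy chain that oxidizes iron on entry into the shell, had log2 values of 11.78, 12.04 and 12.06 in PEC-enriched isolates, against 11.83, 11.58 and 11.80 in PEC-deprived isolates. PEC-enriched replicate 1 lay among the PEC-deprived arrays. Its log2 fold change was 0.22 (SE 0.12, limma adjusted p = 0.599). It was 0.14 without PEC-deprived replicate 2 and 0.31 without PEC-enriched replicate 1, where the unadjusted p was 0.0314 and the adjusted p 0.324.

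Ftl1, the light chain that helps the iron core to form, had log2 values of 12.10, 12.23 and 11.96 in PEC-enriched isolates, against 11.93, 11.58 and 11.92 in PEC-deprived isolates. The groups did not overlap, but only 0.03 separated PEC-enriched replicate 3 from PEC-deprived replicate 1, and PEC-deprived replicate 2 stood apart as the lowest. This gave a log2 fold change of 0.29, in linear terms 1.22-fold (SE 0.13, limma adjusted p = 0.487). Without PEC-deprived replicate 2 it was 0.17.

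Ferritin genes have many near-identical copies in the genome, and the array carries 6 probesets for Ftl1 and 2 for Fth1, so their signal may be shared between copies. The log2 fold changes of the Ftl1 probesets lay between 0.28 and 0.31, with an unadjusted p under 0.05 in 4 of the 6 and no overlap in all 6. Those of Fth1 were 0.22 and 0.25, with overlap in both. Such probesets read related sequence and are not separate measurements. The log2 fold change of the heavy chain was -0.07 relative to that of the light chain, with overlapping arrays (two-sided exact permutation p = 0.7, and 0.7 adjusted over the 4 pairs). The PEC-enriched arrays had differences between heavy and light chain of -0.32, -0.19 and 0.10, against -0.10, 0.0027 and -0.11 in the PEC-deprived arrays, a spread within the PEC-enriched isolates that exceeds the difference between the isolates.

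Export involves a transporter and its ferroxidases. Slc40a1, or ferroportin, the only known iron exporter of mammalian cells, had log2 values of 8.10, 8.66 and 8.15 in PEC-enriched isolates, against 8.08, 7.54 and 7.89 in PEC-deprived isolates. The groups did not overlap, yet PEC-enriched replicate 1 and PEC-deprived replicate 1 differed by only 0.02. PEC-enriched isolates averaged 8.30 ± 0.31, against 7.84 ± 0.27 for PEC-deprived ones (SD, n = 3 each), and the log2 fold change of 0.47 equals 1.38-fold (SE 0.19, 95% interval 0.04 to 0.89, limma adjusted p = 0.432). It was 0.29 without PEC-enriched replicate 2, the highest array, and 0.32 without PEC-deprived replicate 2, the lowest. Its unadjusted p under 0.05 was lost in both cases, and also without PEC-deprived replicate 3 (0.49).

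Cp, or ceruloplasmin, the copper ferroxidase that is secreted or held at the membrane by a lipid anchor, differed most of the 10 genes. Its log2 values were 8.12, 8.61 and 8.41 in PEC-enriched isolates, against 7.73, 7.19 and 7.16 in PEC-deprived isolates. All PEC-enriched arrays were above all PEC-deprived arrays, of which replicate 1 was nearest to them. PEC-enriched isolates averaged 8.38 ± 0.25, against 7.36 ± 0.32 for PEC-deprived ones (SD, n = 3 each). Their log2 difference of 1.02 equals 2.03-fold (SE 0.18, 95% interval 0.60 to 1.44, limma adjusted p = 0.162), and 0.889% of all genes had a higher one. Without single arrays it ran from 0.90 to 1.20.

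Heph, or hephaestin, the membrane-bound relative of ceruloplasmin known from the intestine, had log2 values of 7.41, 7.23 and 7.18 in PEC-enriched isolates, against 7.37, 7.45 and 7.18 in PEC-deprived isolates. The arrays of the isolates were interleaved. Its log2 fold change was -0.06 (SE 0.11, 95% interval -0.32 to 0.19, limma adjusted p = 0.921). The upper end of this interval lies below the lower end of the interval of Cp. The log2 fold change of Cp exceeded that of Heph by 1.08. On each array the value of Cp minus that of Heph was 0.71, 1.38 and 1.23 in PEC-enriched isolates, against 0.36, -0.26 and -0.02 in PEC-deprived isolates, without overlap (two-sided exact permutation p = 0.1, and 0.133 adjusted over the 4 pairs). These differences concern the contrast between isolates and not the levels of the genes, since probes differ in brightness.

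**Figure D2:**
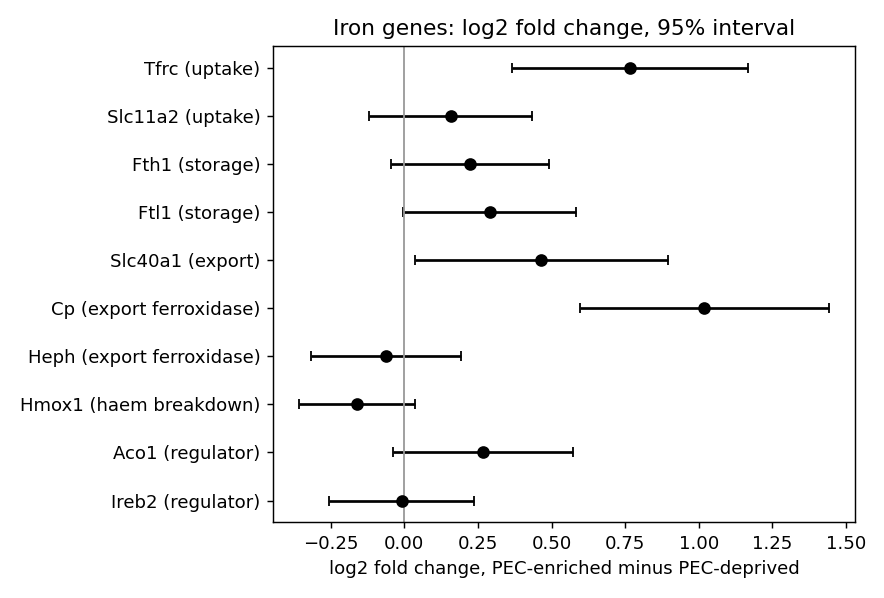
log2 fold change of PEC-enriched minus PEC-deprived isolates (x axis) for each iron gene with its role (y axis), points with 95% intervals from limma, n = 3 arrays per isolate. The intervals of Tfrc (0.37 to 1.17), Slc40a1 (0.04 to 0.89) and Cp (0.60 to 1.44) lie above 0 and the other 7 include it.

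Hmox1, haem oxygenase 1, frees iron from haem and is induced by oxidative stress. Its log2 values were 6.13, 6.09 and 6.03 in PEC-enriched isolates, against 6.21, 6.23 and 6.29 in PEC-deprived isolates. It was the 1 iron gene for which all PEC-enriched arrays were below all PEC-deprived arrays, over a gap of 0.08, where 9.0% of all genes were so. All its values lay below the array medians (6.69 to 6.75). Its log2 fold change was -0.16 (SE 0.09, limma adjusted p = 0.613), with an unadjusted p of 0.0991. Genes of the immediate early response, which handling of tissue can induce, also had lower means in 8 of the 9 measured, and their mean log2 level was 8.01 to 8.19 in PEC-enriched and 8.39 to 8.59 in PEC-deprived isolates. The part of handling in the Hmox1 values was not tested.

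The iron regulatory proteins are Aco1, which is a cytosolic aconitase when it carries an iron-sulfur cluster, and Ireb2, which is degraded when iron is plentiful. Aco1 had log2 values of 9.50, 9.79 and 9.32 in PEC-enriched isolates, against 9.29, 9.16 and 9.36 in PEC-deprived isolates. The groups overlapped, with PEC-enriched replicate 2 well above the rest. This gave a log2 fold change of 0.27 (SE 0.13, limma adjusted p = 0.558). It was 0.14 without that array and 0.38 without PEC-enriched replicate 3, where the unadjusted p was under 0.05 and the adjusted p 0.415.

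Ireb2 had log2 values of 9.01, 9.25 and 8.96 in PEC-enriched isolates, against 9.00, 9.11 and 9.13 in PEC-deprived isolates. PEC-enriched arrays were both the highest and the lowest of the 6. The means differed by -0.01 (SE 0.11, 95% interval -0.26 to 0.24, limma adjusted p = 0.993). The log2 fold change of Aco1 was larger by 0.28, and the arrays did not overlap in the difference between these genes (two-sided exact permutation p = 0.1, and 0.133 adjusted over the 4 pairs). Both proteins are regulated by iron after transcription, which these arrays do not measure.

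The iron genes varied alike across the arrays only in part. PEC-enriched replicate 2 had the highest value in 7 of the 10 genes, while it was highest in 24.8% of all genes. PEC-deprived replicate 2 was lowest in 4 genes (both ferritin chains, Slc40a1 and Aco1) and PEC-deprived replicate 3 in 4 others (Tfrc, Slc11a2, Cp and Heph), against 18.5% and 14.2% of all genes.

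Markers of tubule were higher in the PEC-enriched isolates. All 12 proximal tubule markers were higher in mean, by a median of 1.04, and their mean log2 level was 9.51 to 10.14 in PEC-enriched and 8.04 to 9.46 in PEC-deprived isolates. All 5 markers of the thick ascending limb had a higher mean, with levels of 8.80 to 9.40 in PEC-enriched and 6.34 to 7.80 in PEC-deprived isolates. So did all 7 of the distal tubule and collecting duct, with 7.32 to 7.65 in PEC-enriched and 6.08 to 6.83 in PEC-deprived isolates, and 8 of 9 markers of the parietal epithelium, with 8.02 to 8.44 in PEC-enriched and 7.36 to 7.73 in PEC-deprived isolates. The exception was Vcam1, at -0.27 and without overlap. The parietal list holds Pax8, whose protein the study also saw in some tubules, so it is not separate from tubule. Within the PEC-deprived isolates, replicate 1 was highest and replicate 2 lowest in each of the tubule lists and in the parietal list. Slc40a1 and Ftl1 followed that order, whereas Tfrc was lowest on replicate 3, and Cp was about level on replicates 2 and 3 (7.19 and 7.16). Single markers of these lists also varied in this order, and Calb1, Kcnj1 and Pax2, for example, were lowest on replicate 3. The lists differed in order within the PEC-enriched isolates. Replicate 1 was highest for the thick ascending limb and for the distal tubule and collecting duct, and replicate 2 for the proximal tubule and parietal epithelium. Cp, Tfrc and Slc40a1 were highest on replicate 2 and lowest on replicate 1, as were the parietal list and a list of podocyte markers. For Slc40a1, replicates 1 and 3 were close (8.10 and 8.15). Ftl1 was highest on replicate 2 and lowest on replicate 3, as was the proximal list. The part of tubule or parietal epithelium in the values of Tfrc, Cp and Slc40a1 was not tested.

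Markers of other cells that handle iron were set beside them. Of 8 markers of macrophages and leukocytes, which recycle iron through Slc40a1 and Hmox1, 8 had a lower mean, but levels overlapped at 6.67 to 7.49 in PEC-enriched and 7.30 to 7.48 in PEC-deprived isolates, and PEC-enriched replicate 1 was the highest array. Of the erythroid list, 4 of 8 genes were measured, with levels of 7.88 to 8.03 in PEC-enriched and 7.73 to 8.00 in PEC-deprived isolates. Endothelial markers were lower in 8 of 8, with levels of 10.61 to 11.18 in PEC-enriched and 11.26 to 11.36 in PEC-deprived isolates. For podocytes, 6 of 8 markers were measured, at 11.55 to 11.88 in PEC-enriched and 11.65 to 11.70 in PEC-deprived isolates. Of 7 markers of mesangium and smooth muscle 6 were measured, 3 higher and 3 lower in mean, and their mean level overlapped at 9.30 to 9.64 in PEC-enriched and 9.35 to 9.39 in PEC-deprived isolates. The 3 higher ones, the contractile genes Myh11 (0.83), Tagln (0.72) and Acta2 (0.22), did not overlap between the isolates and had an unadjusted p under 0.05, and so had Des, a filament protein of mesangial and muscle cells, in the other direction (-0.34). The part of these cells in the iron genes was not tested.

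**Figure D3:**
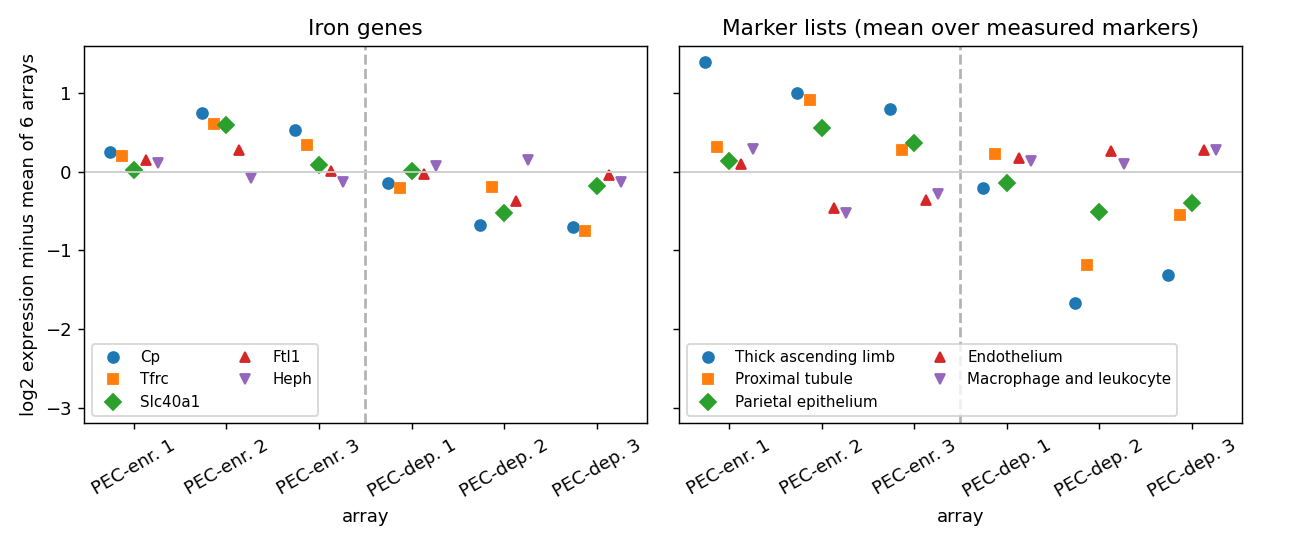
log2 expression minus the mean of the 6 arrays (y axis) on each array (x axis, PEC-enriched left of the dashed line and PEC-deprived right of it) for 5 iron genes (left) and for the mean of 5 marker lists (right), each point 1 array. PEC-enriched replicate 2 is the highest array for Cp, Tfrc, Slc40a1 and Ftl1, and replicate 2 is the lowest PEC-deprived array for Slc40a1, Ftl1 and the tubule lists.

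The wider iron and haem pathway was read from 6 lists of 69 genes by role, of which 59 were measured. In limma the cutoff of 0.01 after adjustment was met by 0 of 59. Before adjustment, p was under 0.05 for 9 higher genes and 1 lower one, where 7.96% and 5.65% of all genes were so. Without overlap between the isolates, 12 genes were higher and 0 lower, where 9.68% and 9.0% of all genes were so. The median log2 fold change was 0.03, against -0.02 over all genes and 0.24 over the 10 iron genes.

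Genes of iron entry spread most. Of 16 measured, 5 were higher and 1 lower at an unadjusted p under 0.05, where 7.96% and 5.65% of all genes were so. Their median log2 fold change was 0.04. Lcn2, or lipocalin 2, which carries iron bound to siderophores and is released by injured tubules, had the highest value of all 6 lists. It stood at 7.56, 7.91 and 8.37 in PEC-enriched isolates, against 7.03, 6.33 and 6.53 in PEC-deprived isolates, a difference of 1.32 in log2, or 2.49-fold (SE 0.24, limma adjusted p = 0.162). Lcn2 was also listed as higher by the study's own Bayesian test. The other 4 higher genes were Cubn, Steap2, Steap1 and Lrp2. Cubn and Lrp2 encode cubilin and megalin, which recover filtered transferrin in the proximal tubule, and both are also in the proximal tubule list. Their log2 fold changes were 1.05 and 0.36. Steap2 is a metalloreductase that reduces iron for transport, and its log2 fold change was 0.87 (SE 0.27, limma adjusted p = 0.322). Steap1, a relative of it, had 0.51. The lower gene was Cybrd1, a ferric reductase known from the intestine, with -0.35, but a second probeset of it is on the array and was not used. Tf, or transferrin itself, had the lowest value of this list, with log2 values of 7.71, 7.00 and 6.98 in PEC-enriched isolates, against 7.69, 7.56 and 7.77 in PEC-deprived isolates. PEC-enriched replicate 1 lay among the PEC-deprived arrays, and the log2 fold change was -0.44 (SE 0.19, limma adjusted p = 0.485).

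Other lists cover iron inside the cell and its systemic control. At an unadjusted p under 0.05 in limma, 7.96% of all genes were higher. Of 9 measured genes of iron chaperones, ferritin turnover and mitochondrial iron, 1 was higher at an unadjusted p under 0.05, and the median was 0.07. That gene was Nfs1, the desulfurase of iron-sulfur cluster assembly, with a log2 fold change of 0.43 (limma adjusted p = 0.352). Ftmt, mitochondrial ferritin, was the lowest at -0.09. Of 8 measured genes of the hepcidin axis and iron sensing, 1 was higher, Neo1, a co-receptor of the hepcidin pathway, at 0.32 (limma adjusted p = 0.469). The lowest was Bmp2, a ligand of the same pathway, at -0.34 (limma adjusted p = 0.728). Their median was 0.03.

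Of the haem genes, those of synthesis had 3 higher and 5 lower means, and those of uptake, breakdown and export 3 higher and 7 lower. Haem synthesis had 0 of 8 measured genes at an unadjusted p under 0.05 and a median of -0.04, from Ppox, protoporphyrinogen oxidase, at 0.29 to Alas2, the erythroid first enzyme of the path, at -0.18. Haem uptake, breakdown and export had 0 of 10 and a median of -0.03, from Slc48a1, a haem transporter of lysosomes, at 0.22 to Lrp1, a receptor for haem bound to hemopexin, at -0.39. The NRF2 targets are antioxidant genes that share this regulator with ferritin and Hmox1. Of 8 measured, 2 were higher at that limit, Gclm and Me1, where 7.96% of all genes were so. The median of this list was 0.15. The highest was Gclm, a subunit of the enzyme that starts glutathione synthesis, at 0.27 (limma adjusted p = 0.372), and the lowest Srxn1, sulfiredoxin, at -0.15. In this list 6 of 8 means were higher, while that of Hmox1 was lower.

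**Figure D4:**
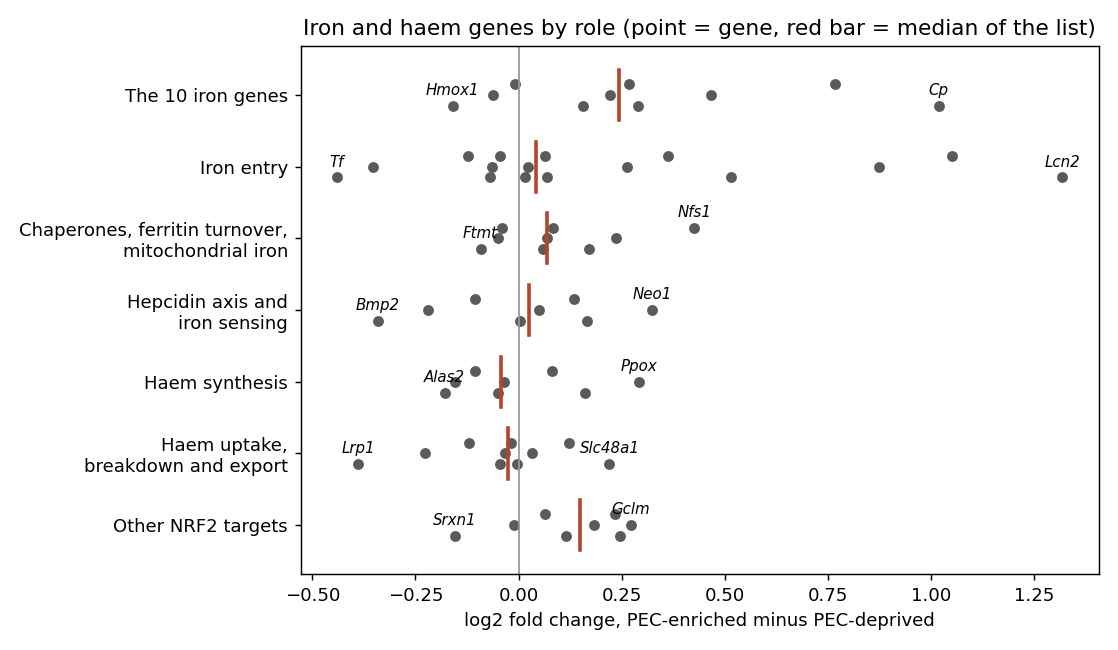
log2 fold change of PEC-enriched minus PEC-deprived isolates (x axis) for the 10 iron genes and 6 lists by role (y axis), each point 1 gene and each red bar the median of its list, with the highest and lowest gene named. The medians of the 6 lists lie between -0.04 and 0.15, and Lcn2 at 1.32 is the highest gene.

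For Cp and Tfrc the genes with the most similar pattern were sought among the 14506 genes, by the root mean square difference of log2 values centred on their mean over the 6 arrays. For Cp they were Ptprf, a receptor tyrosine phosphatase, with a difference of 0.08, Pon3, a paraoxonase (0.10), and Adamts15, a secreted protease (0.10), where a gene with no variation would be at 0.56. For Tfrc they were Gprc5a, an orphan receptor (0.10), Ces2c, a carboxylesterase (0.11), and Olr59, of the olfactory receptor family (0.13), where a gene with no variation would be at 0.44. Ptprf had log2 values of 7.98, 8.36 and 8.07 in PEC-enriched isolates, against 7.40, 6.86 and 7.00 in PEC-deprived isolates. With 6 arrays of a pair of isolates many genes share such a pattern, and nothing about function follows from it.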

How the data were processed

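RNA of 6 glomerular preparations was hybridized to Affymetrix rat whole-transcript arrays, 3 PEC-enriched and 3 PEC-deprived. The authors adjusted the background, quantile normalized and summarized each probeset with RMA, and deposited log2 expression values, which run from 2.13 to 13.87 with array medians between 6.69 and 6.75. The software's version: not given in the sources used here. That the values are log2 was taken from RMA and this range. Neither scanner files nor detection calls were used, the distance from background is thus unknown, and the number of arrays limits the precision. Correlations between arrays lay between 0.982 and 0.994, and no arrays were identical.

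Differences were tested two-sided in R 4.3.3 with limma 3.58.1 (lmFit, eBayes, without covariates) on the 29215 probesets together, p-values were adjusted after Benjamini and Hochberg, and 0.01 was the threshold, as a stand-in for the Bayesian test of the methods. Gene names came from the platform annotation, and 15310 probesets had 1 symbol, 323 several and 13582 none. Replicate numbers were not used as pairs, since the methods do not say which arrays belong together. Deviations of same-numbered arrays from their group means had correlations of -0.03, 0.05 and 0.10, the last being the highest between any arrays of the isolates. Such correlations cannot show whether a rat gave both fractions, since the make-up of a preparation also shapes them. Pairs of related genes were compared by an exact permutation test of the difference between their values on each array. Genes and lists were chosen with earlier results of these data known, so p-values of single genes were adjusted over all probesets and never over a list alone, and lists were described by counts and medians. The permutation p-values of the 4 gene pairs were adjusted over these pairs. All 10 iron genes were named, and of each wider list the genes with the highest and lowest log2 fold change, besides Cubn, Steap1, Steap2, Lrp2, Cybrd1 and Me1 and the single markers, named after their values were seen. Marker lists were written by cell type, and where fewer genes were measured than listed the rest had no probeset with 1 symbol. Sequences are from RefSeq, build GRCr8. limma and the regularised test were tested on simulated data, where the regularised test found more of the changed probesets and had a larger share of false calls. The simulated noise was independent between probesets and took limma's own variance estimates. Alternatives were a replicate block, an intensity trend, a regularised Bayesian test (prior weight 10), array weights, a filter on dim probesets, cyclic loess, median centring, a restriction to probesets with 1 symbol, other thresholds, the mean of a gene's probesets, and each array left out. Figures were drawn with matplotlib 3.10.9.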

Additional observations from a re-analysis of the deposited data

How the results depend on the processing

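The counts of probesets and of iron genes past an adjusted p under 0.01 were 0 in limma and stayed 0 under the alternatives run, with few exceptions. The regularised Bayesian test called 119 probesets and 1 iron gene, Cp. In simulated data its share of false calls was 5.84%, against 1.96% for limma. Those data had independent noise with limma's own variance estimates, so the shares need not hold for these arrays. Without adjustment, 3048 probesets and 3 iron genes had p under 0.05. With single arrays left out the count of probesets was 0 to 1, the 1 being without PEC-deprived replicate 1, and that of iron genes 0 to 0. Cp had an unadjusted p under 0.05 in all 15 alternative fits and Tfrc in all 14 that tested it, since Tfrc and Hmox1 did not pass the filter on dim probesets. Slc40a1 had it in 11 of 15 and Ftl1 in 8 of 15. With the replicate number as a block, the log2 fold changes are unchanged by construction (median of the iron genes 0.2445), 0 iron genes and 0 probesets passed, and the pairs of related genes had p = 0.25 or more, the smallest that 3 pairs allow in an exact test. Not every array deviated most like the one with its own number. Ireb2 turned from -0.0085 to 0.0064 with cyclic loess and ran from -0.0983 to 0.0482 without single arrays. Fth1 minus Ftl1 ran from -0.187 to 0.0244 without single arrays. Over probesets above the median level, the median of the hepcidin axis was 0.14 and that of the NRF2 targets 0.23. Without single arrays the median ran from -0.0063 to 0.13 for iron chaperones, from -0.0555 to 0.102 for the hepcidin axis, from -0.0969 to 0.0237 for haem synthesis and from -0.0565 to -0.0041 for haem uptake, breakdown and export. That of the iron genes ran from 0.16 to 0.31. The causes of these shifts were not tested.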
